A study of Mus musculus with 2 samples.

Results

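Open chromatin was described at 8 TALE homeobox genes of cardiac progenitor cells (CPCs), namely Meis1, Meis2, Meis3, Pbx2, Pbx3, Pbx4, Pknox1 and Pknox2. A peak belonged to a gene when the gene symbol that the deposited list gave for it was that gene's symbol. By this rule 31 of 26232 distinct peaks (0.118%) belonged to the 8 genes, and each of the 8 genes had at least 1 peak. The 8 genes do not cover every gene of the Meis, Pbx and Pknox families. The data were ATAC-seq profiles, in which the Tn5 transposase cuts and tags DNA that is not wrapped into compact chromatin, so that a peak is a stretch of DNA with many such cuts. The cells were mouse E14 Tg(Nkx2-5-EmGFP) embryonic stem cells, an embryonic stem cell line with a green fluorescent reporter of the cardiac gene Nkx2-5 for which the labels give the strain C57BL/6, differentiated to CPCs and collected on day 5. The labels list 2 replicates of this 1 group without any treatment, and per the methods they came from independent differentiations. The series also names an Isl1 knockdown, which was not analysed here. The list held 1 set of intervals for both replicates, with positions but no height, read count or significance, so that depth is unknown, no value had a replicate error, and no difference between conditions could be tested.

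TALE proteins are transcription factors whose homeodomain carries extra amino acids in the loop between its first and second helix. Meis and Pknox proteins bind DNA through a core with the letters TGACAG, and Pbx proteins pair with them or with Hox proteins, which changes the sites that each of them can bind. Members of the group act in the patterning of the hindbrain and limbs, in blood stem cells, and in the formation of the heart and its outflow tract.

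The label of the cells was set against marker genes by the presence of a peak within 10 kb of a transcription start site (TSS), which is not a measure of expression. Over all 22232 protein coding genes, 66.6% had such a peak. All 10 cardiac progenitor markers had one, as had all 5 markers of pluripotent cells, 3 of 4 neural markers and 2 of 4 liver markers, whereas none of the 4 blood markers Gata1, Spi1, Hbb-bh1 and Ptprc had one. The peaks near pluripotent and neural markers stood beside those near cardiac markers, and their part in the values below was not tested.

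Sequences of the mouse genome build mm9, the build of the deposited coordinates, were read for the Meis1 and Meis2 starts, because the RefSeq promoter window (250 bp before to 50 bp after the start) overlapped a peak at Meis1 but not at Meis2. RefSeq windows, given for the build GRCm38.p6 and matched by their letters to mm9, were found for 5 of 8 genes, namely Meis1, Meis2, Meis3, Pbx2 and Pbx4. The Meis1, Meis3, Pbx2 and Pbx4 windows overlapped a peak of the list. The Meis2 window lay 347 bp from the nearest peak. The stretches just before the starts that hold no annotated exon are printed 5′ to 3′ in the direction of transcription with each CpG in capitals, since CpG dinucleotides mark the promoters that are most often open.
Meis1 promoter, chr11:18918973-18919222, minus strand: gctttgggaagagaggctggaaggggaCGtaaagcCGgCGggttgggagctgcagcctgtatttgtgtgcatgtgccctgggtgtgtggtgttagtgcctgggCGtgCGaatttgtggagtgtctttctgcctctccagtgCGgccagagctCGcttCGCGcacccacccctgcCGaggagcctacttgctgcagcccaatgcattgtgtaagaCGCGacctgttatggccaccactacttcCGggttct
Meis2 promoter, chr2:115890358-115890537, minus strand: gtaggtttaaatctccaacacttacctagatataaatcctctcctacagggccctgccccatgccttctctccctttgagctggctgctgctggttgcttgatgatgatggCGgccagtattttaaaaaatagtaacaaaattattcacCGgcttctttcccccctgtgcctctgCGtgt
The Meis1 window held 15 CpG dinucleotides and was 58.3% G and C. Its CpG ratio, the CpG count divided by the number expected from its C and G content, was 0.59. The Meis2 window, outside every peak, held 13 CpG dinucleotides, was 51.0% G and C, the lowest share of the 5 windows, and had a CpG ratio of 0.67. The ratios of the Meis3, Pbx4 and Pbx2 windows, with a peak, were 0.69, 0.80 and 0.88. The printed Meis1 stretch holds 13 of the 15 CpG dinucleotides of its window, and the printed Meis2 stretch 3 of 13.

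Peaks away from the starts differed in CpG ratio, and 5 stretches of 100 bp from the centres of such peaks are printed on the plus strand of mm9 with each CpG in capitals. The Meis1 and Meis2 stretches come from peaks rich in CpG and the Pknox2 stretches from peaks poor in it, and they were chosen for this difference after the values were seen. No stretch overlapped an annotated exon.
Meis1 peak 141664 bp downstream, chr11:18777259-18777358, plus strand: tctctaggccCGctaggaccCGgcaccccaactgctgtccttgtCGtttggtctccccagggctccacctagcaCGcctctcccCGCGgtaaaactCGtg
Meis1 peak 8483 bp upstream, chr11:18927406-18927505, plus strand: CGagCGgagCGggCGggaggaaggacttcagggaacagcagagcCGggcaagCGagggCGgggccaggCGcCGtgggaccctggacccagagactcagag
Meis2 peak 211762 bp downstream, chr2:115678544-115678643, plus strand: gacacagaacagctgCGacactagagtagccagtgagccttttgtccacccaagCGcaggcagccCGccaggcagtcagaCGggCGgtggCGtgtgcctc
Pknox2 peak 40215 bp downstream, chr9:36914643-36914742, plus strand: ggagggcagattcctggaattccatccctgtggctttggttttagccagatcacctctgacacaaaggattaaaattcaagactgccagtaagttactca
Pknox2 peak 125489 bp downstream, chr9:36829369-36829468, plus strand: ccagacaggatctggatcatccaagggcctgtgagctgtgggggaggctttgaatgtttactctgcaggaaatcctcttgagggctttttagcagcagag
The Meis1 stretches held 7 and 9 CpG dinucleotides, the Meis2 stretch held 6, and neither Pknox2 stretch held any.

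The 8 genes did not share the peaks evenly. Pknox2 had 8 peaks, Meis1 and Meis2 had 7 each, Pbx3 had 3, Pbx4 and Pknox1 had 2 each, and Meis3 and Pbx2 had 1 each. The 3 genes with the most peaks held 22 of the 31 (71.0%). By family, the Meis genes held 15 peaks, the Pknox genes 10 and the Pbx genes 6. The mean was 3.88 peaks per gene and the median 2.5, beside a mean of 1.71 and a median of 1 over the 15351 genes with a peak. Over those genes, 150 (0.977%) had 7 or more peaks, and the highest number was 14. At least 1 assigned peak was listed for 62.5% of the 21896 protein coding genes of the RefSeq table, so that a peak at all 8 genes is to be read beside that share.

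**Figure D1:**
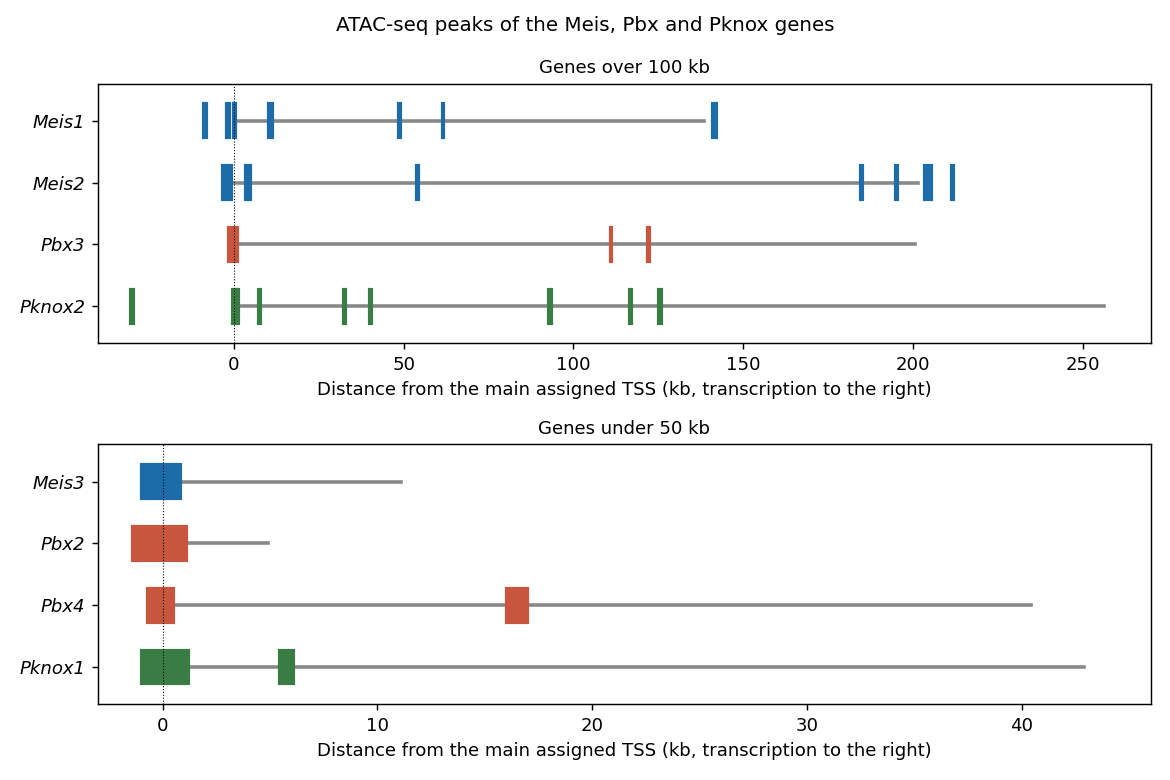
Positions of the 31 peaks, one gene per row, as the distance in kb from the TSS used for most of the gene's peaks, with transcription to the right. Coloured blocks are peaks drawn to their width and grey lines reach to the annotated end of the gene; the upper panel holds the 4 genes over 100 kb and the lower panel, with its own scale, the 4 genes under 50 kb. Of the 7 Meis2 peaks 4 lie around its 3′ end, 2 at or near its start and 1 between, whereas 7 of the 8 Pknox2 peaks lie in the part of the gene nearer to its start and 1 upstream of it.

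The genes with the most peaks were long, and the number of peaks was therefore set beside genes of like length. Meis1 (138.5 kb), Meis2 (202.8 kb), Pbx3 (201.7 kb) and Pknox2 (256.3 kb) fell among 1505 protein coding genes with a peak that were 100 to 300 kb long. These 1505 genes had a median of 2 peaks with quartiles of 1 and 3, and 3.46% had 7 or more. Meis1, Meis2 and Pknox2 were above the upper quartile, and Pbx3, with 3 peaks, was at it. When each peak was given to the nearest protein coding start instead, Meis1 had 4 peaks, whereas Meis2 and Pknox2 had 8 each. At Meis1, 4 of the 7 were nearer to Gm16140, a gene annotated within it, and 1 peak listed for 4933406G16Rik was added. At Meis2, 1 peak listed for 2810405F15Rik was added. Meis3 (11.1 kb), Pbx2 (6.1 kb), Pbx4 (40.5 kb) and Pknox1 (42.9 kb) fell among 8913 genes under 50 kb with a median of 1 and quartiles of 1 and 2, and all 4 lay within those quartiles. Per 100 kb of gene body, whatever gene a peak was assigned to, Pknox2 had 4.29 peaks, Meis1 2.89, Meis2 2.47 and Pbx3 1.49. The 4 shorter genes had higher values, with 16.3 at Pbx2, 8.99 at Meis3, 4.93 at Pbx4 and 4.66 at Pknox1. These values were not set against genes of like length.

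**Figure D2:**
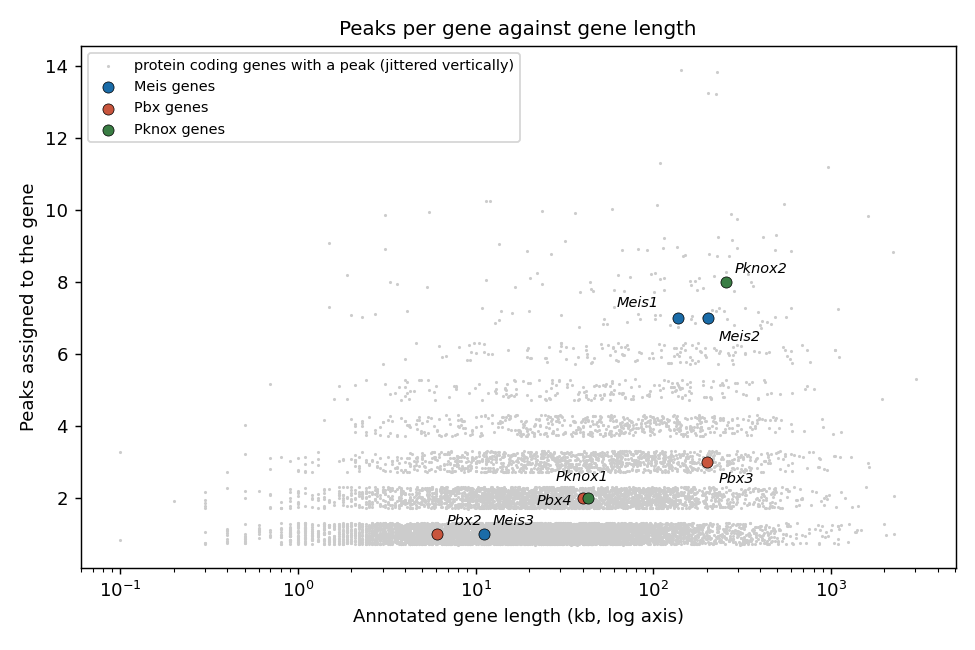
Number of peaks assigned to a gene against its annotated length in kb on a log axis, with grey points for protein coding genes with a peak, moved by up to 0.3 up or down so that they do not hide each other. Coloured points are the 8 genes at their whole counts. Meis1, Meis2 and Pknox2, with 7, 7 and 8 peaks, lie above most genes of their length, and the 4 genes under 50 kb lie in the bands of 1 and 2 peaks.

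The region around the 5′-most coding start was open at all 8 genes. At Meis2 the RefSeq window belonged to another start and lay 347 bp from the nearest peak. A peak overlapped the region 500 bp to either side of the 5′-most annotated coding start of 8 of 8 genes, beside 53.5% of 22359 protein coding promoters. The share depended on base composition over all promoters, with 89.4% of 9965 CpG-rich promoters (with a GC content of 50% or more and a CpG ratio of 0.6 or more) and 24.7% of 12394 other promoters overlapping a peak. Of the 8 genes, 6 were CpG-rich by this measure. The other 2 were Meis3, with a ratio of 0.47, and Pbx2, with a ratio of 0.26. The class depended on the window. The RefSeq window of Pbx2, which lies further into the gene, had a ratio of 0.88, and that of Meis3 had 0.69. The RefSeq window of Meis1, a gene counted as CpG-rich here, had a ratio of 0.59.

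The start peaks of the 8 genes ranged from 824 bp at Meis1 to 3075 bp at Pbx3. The peaks within 1 kb of their assigned TSS, 8 in number and 1 for each gene, were 2215 bp wide at the median, with quartiles of 1700 and 2662 bp, beside a median of 1326 bp and quartiles of 1072 and 1691 bp over the 11772 peaks of that class. Of the 8, 6 were wider than the upper quartile of the class, beside 25.0% over the class. The exceptions were Meis1 and Pbx4, and the other 6 genes therefore set the median.

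Meis1, a gene known from leukaemia, blood stem cells and the cell cycle exit of heart muscle cells, had 7 peaks on chromosome 11 on and around its body (chr11:18780433-18918961, minus strand). The start peak (chr11:18918477-18919300) was 824 bp wide with its midpoint 84 bp downstream of the TSS in exon 1, and only 6.66% of peaks within 1 kb of a TSS were narrower. It was 1 of 3 peaks within 9.5 kb, the others being a 1067 bp peak 1768 bp upstream (chr11:18920208-18921274) and a 1120 bp peak 8483 bp upstream (chr11:18926896-18928015). Both upstream peaks were thus wider than the peak at the start itself.

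Inside Meis1, a 1456 bp peak lay 10870 bp downstream in intron 6 (chr11:18907375-18908830), and its midpoint was 1029 bp from the start of Gm16140. Intron 7 held a 730 bp peak at 48808 bp (chr11:18869800-18870529) and a 655 bp peak at 61548 bp (chr11:18857098-18857752), the narrower of the pair. The remaining peak, 1424 bp wide, was 141664 bp downstream of the TSS and 3125 bp past the annotated 3′ end (chr11:18776597-18778020). It was wider than 87.9% of the peaks more than 1 kb from their listed TSS. Exons and introns were counted along the longest coding transcript.

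Meis2, which acts in the neural crest, the palate and the septation of the outflow tract, had 7 peaks (gene body chr2:115688800-115891575, minus strand) in a different arrangement. Its start peak (chr2:115890953-115893928) was 2976 bp wide, wider than 98.3% of peaks within 1 kb. The listed distance of 740 bp downstream was measured from another start, at position 115893180, than the one used for the other 6 peaks, at position 115890355. Measured from the latter, the midpoint was 2085 bp upstream. The interval covered the starts of 2 Meis2 transcripts, of 2700033N17Rik on the same strand and of G630016G05Rik, a long intergenic non-coding RNA on the opposite strand, so that its opening cannot be assigned to Meis2 alone.

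The next peak, 1683 bp wide, was 4138 bp downstream in intron 4 (chr2:115885377-115887059), and a 934 bp peak followed at 53993 bp in intron 7 (chr2:115835896-115836829). No peak assigned to the gene lay in the next 130.1 kb. Beyond this gap, 4 peaks within 27.6 kb surrounded the 3′ end. Intron 9 held an 845 bp peak at 184985 bp (chr2:115704949-115705793) and a 942 bp peak at 195233 bp (chr2:115694652-115695593). Past the 3′ end lay a 2092 bp peak at 204462 bp (chr2:115684848-115686939), 2907 bp beyond it, and a 782 bp peak at 211762 bp (chr2:115678203-115678984), 10207 bp beyond it. Other annotated Meis2 starts lay nearer to these 4 peaks, 6672, 3557, 12786 and 20086 bp from their midpoints in the same order. The 2092 bp peak was wider than 96.8% of the peaks more than 1 kb from their listed TSS, and the widest of the 23 member peaks away from a start.

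Meis3, a less studied Meis gene with a role in hindbrain patterning, had 1 peak (chr7:16759740-16761599) of 1860 bp, centred 75 bp upstream of its TSS. It was wider than 82.2% of peaks within 1 kb. Pbx2, a broadly expressed Pbx gene, likewise had 1 peak (chr17:34727983-34730540), 2558 bp wide and centred 155 bp upstream of its assigned TSS. It was wider than 96.1% of its class, and its width came to 41.7% of the length of the gene, which spans 6.1 kb. No peak away from the start was assigned to either gene.

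Pbx3, a Pbx gene of the developing nervous system and the outflow tract, had the widest of the 31 peaks (chr2:34226294-34229368), which spanned 3075 bp around a midpoint 265 bp upstream of the TSS and ranked 167 by width among 11772 peaks within 1 kb. Its other 2 peaks lay deep in intron 2. They were 648 bp wide at 111181 bp (chr2:34116061-34116708), the narrowest of the 31, and 892 bp wide at 122191 bp (chr2:34104929-34105820). Another annotated Pbx3 start lay 47420 and 36410 bp from them. Pbx4, best known from the testis, had a start peak of 1221 bp centred 94 bp upstream (chr8:72355900-72357120), which was wider than 39.8% of its class. Its other peak, of 986 bp, was 16502 bp downstream in intron 1 (chr8:72372613-72373598).

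Pknox1, also called Prep1, is broadly expressed and needed in the early embryo, and had a start peak of 2246 bp (chr17:31700703-31702948) centred 107 bp downstream in exon 1. This interval also covered the start of an annotated microRNA, AC166172.1. A narrower peak of 685 bp lay 5782 bp downstream in intron 1 (chr17:31707159-31707843). The 2 peaks of Pknox1 therefore stayed within 6 kb of the start, whereas its paralogue had peaks spread over its first introns.

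Pknox2, or Prep2, more restricted in its expression than Pknox1, had the most peaks of the group. Its start peak (chr9:36953264-36955447) was 2184 bp wide with a midpoint 552 bp downstream, in intron 1 of a gene body at chr9:36698570-36954899 on the minus strand. Intron 1 held 3 further peaks, of 1050 bp at 7587 bp (chr9:36946796-36947845), 786 bp at 32676 bp (chr9:36921839-36922624) and 1051 bp at 40215 bp (chr9:36914168-36915218). Intron 2 held another 3, of 1039 bp at 93039 bp (chr9:36861350-36862388), 1140 bp at 116824 bp (chr9:36837514-36838653) and 1087 bp at 125489 bp (chr9:36828876-36829962). The last peak, of 1100 bp, was 29988 bp upstream (chr9:36984346-36985445). The 7 peaks away from the start kept to widths between 786 and 1140 bp.

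The list stopped assigning peaks to Pknox2 in intron 2, but the gene body held 4 more intervals further on. They were 947 to 1347 bp wide and lay 170363 to 230389 bp downstream of the Pknox2 start. The list assigned them to Fez1, a gene beyond the 3′ end of Pknox2 whose start was 73274 to 133300 bp away. These 4 intervals were looked up after the counts were known and are not among the 31. With them, 11 peaks lay over the body of Pknox2.

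Distances to the listed TSS were longer for the 31 peaks than over the list as a whole. Within 1 kb lay 8 of 31 peaks (25.8%, 95% Wilson interval 13.7 to 43.2%), beside 44.9% of all peaks. Within 10 kb lay 13 (41.9%, interval 26.4 to 59.2%), beside 58.6%. Beyond 100 kb lay 9 (29.0%, interval 16.1 to 46.6%), beside 8.20%. These 9 peaks came from Meis1, Meis2, Pbx3 and Pknox2, all genes over 100 kb long. The distance depended on which start was used. Measured from the nearest annotated coding start, 3 of 31 (9.68%, interval 3.35 to 24.9%) lay beyond 100 kb, beside 8.34% of all peaks, namely 1 of Meis1 and 2 of Pknox2. By that measure 16 (51.6%, interval 34.8 to 68.0%) lay within 10 kb, beside 59.3%, so that the higher share beyond 100 kb was seen with the listed starts only. The intervals, here and below, treat peaks as independent and cover counting error over this list, with no error between cultures. Of the 31 peaks, 22 came from 3 genes, and of the 9 beyond 100 kb from the listed start 4 came from Meis2. The intervals can therefore be too narrow.

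The direction from the listed start was uneven as well. Of the 23 peaks beyond 1 kb, 20 (87.0%, interval 67.9 to 95.5%) lay downstream of the listed TSS, beside 55.8% of the 14460 peaks of that class. The exceptions were the 2 upstream peaks of Meis1 and the 1 of Pknox2. From the nearest annotated coding start, 13 of the 23 (56.5%, interval 36.8 to 74.4%) lay downstream, beside 54.3%, and the share was then close to that of all peaks. Inside the assigned gene lay 17 of the 23 (73.9%, interval 53.5 to 87.5%). Beside this stood 37.0% of the 11332 peaks of that class whose assigned symbol was that of an annotated protein coding gene. A long gene leaves more room for such peaks, and the share was not set against genes of like length.

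**Figure D3:**
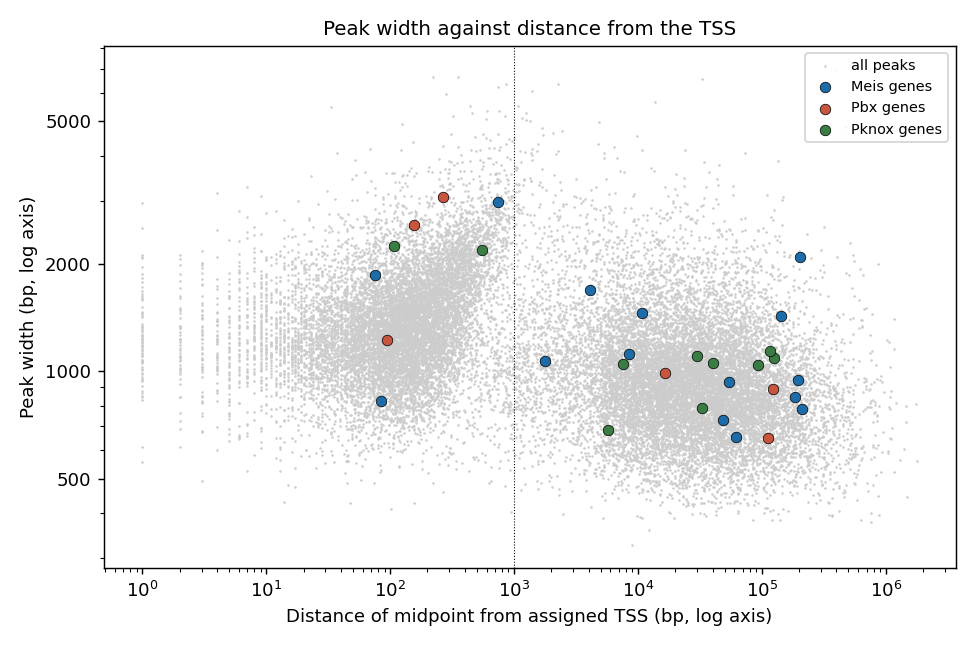
Peak width in bp against the distance of the midpoint from the assigned TSS in bp, both on log axes, with a distance of 0 drawn at 1 and a dotted line at 1 kb. Grey points are all peaks and coloured points the 31 peaks of the Meis, Pbx and Pknox genes. To the left of the line 6 of 8 coloured points lie at 1860 bp or higher, and to the right of it most lie within the grey cloud.

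Away from the starts the widths were close to those of the whole list. Among the 23 peaks beyond 1 kb the width ranged over quartiles of 815.5 and 1110 bp around a median of 1039 bp, beside a median of 911 bp and quartiles of 735 and 1146 bp for all such peaks. Over all 31 peaks the median was 1067 bp, beside 1081 bp over the list.

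The CpG ratio away from the start was higher at Meis1 than at Pknox2 by its median, with ranges that overlapped. The 6 Meis1 peaks beyond 1 kb had a median CpG ratio of 0.57 and ranged from 0.05 to 0.68. The 7 Pknox2 peaks beyond 1 kb had a median of 0.15 and ranged from 0.10 to 0.28. The 6 Meis2 peaks lay between, with a median of 0.31 and a range of 0.18 to 0.55. GC content itself was similar, with medians of 53.3% at Meis1, 49.9% at Meis2 and 52.8% at Pknox2.

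A CpG ratio of at least 0.5 was found in 6 of the 23 peaks beyond 1 kb (26.1%, interval 12.5 to 46.5%), beside 13.6% of all such peaks. This limit was chosen after the values were seen. At Meis1 they were 4 of 6 peaks, with ratios of 0.68 past the 3′ end, 0.54 in intron 6, and 0.61 in each of the upstream peaks. At Meis2 they were 2 of 6, with ratios of 0.51 and 0.55, both past the 3′ end. None of the 7 Pknox2 peaks reached it, and these lay 7531 bp or more from the nearest coding start. Of the 4 Meis1 peaks, that in intron 6 lay 1029 bp from the start of Gm16140. The upstream peaks lay 1779 and 8494 bp from the nearest coding start. The Meis1 peak past the 3′ end, with the highest ratio, lay 131823 bp from the nearest coding start. The 2 Meis2 peaks, at ratios of 0.51 and 0.55, lay 20086 and 12786 bp from it. Whether the ratio went with nearness to a start was not tested. With a limit of 0.6, only the 3 Meis1 peaks at 0.61 and above remained, beside 8.02% of all such peaks.

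**Figure D4:**
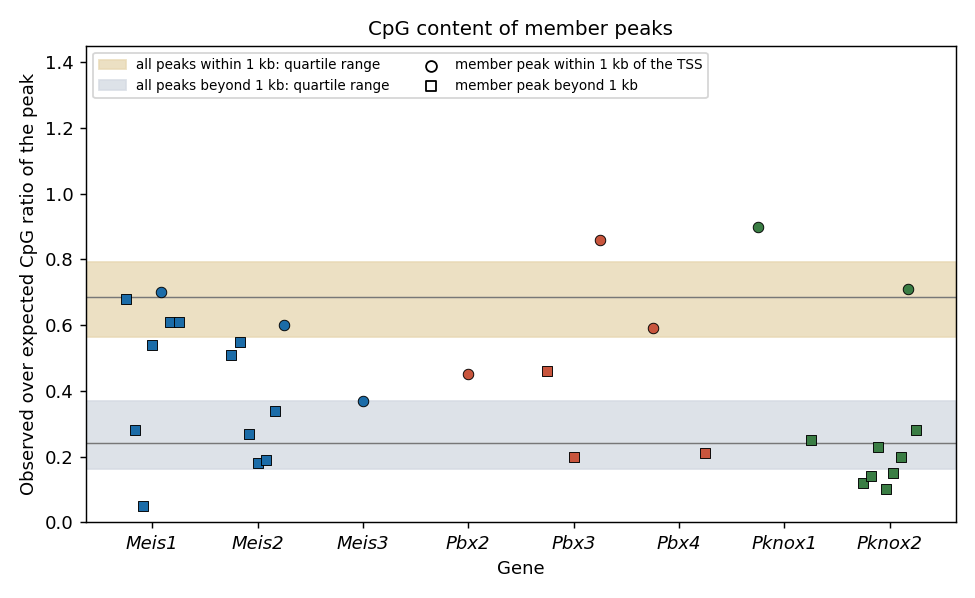
CpG ratio (observed over expected) of each of the 31 peaks by gene, with circles for peaks within 1 kb of the assigned TSS and squares for peaks beyond it, placed from left to right by genome position. Shaded bands and lines are the quartile ranges and medians over all peaks of each class. Of the Meis1 squares 4 of 6 lie at 0.54 or higher, and the 7 Pknox2 squares lie at 0.28 or lower.

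Letters of known binding motifs were searched on both strands in the central 300 bp of each peak, beside the same windows of all peaks beyond 1 kb. A match is a run of letters and not evidence of binding. The Meis and Pknox core TGACAG was found in 6 of the 23 peaks beyond 1 kb (26.1%, interval 12.6 to 46.5%), beside 25.9% of all such peaks. The share at these genes was thus at the background. Pbx3, Pknox1, Pknox2 and Meis2 held them, at both Pbx3 peaks in intron 2, at the Pknox1 peak in intron 1, at 2 Pknox2 peaks and at the 2092 bp Meis2 peak. The 7 matches outside exons are printed within 60 bp of mm9, on the strand that holds the core, with the core in capitals. They are printed because Meis and Pknox proteins are known to bind this core.
Meis2 peak 204462 bp downstream, chr2:115685760-115685819, minus strand: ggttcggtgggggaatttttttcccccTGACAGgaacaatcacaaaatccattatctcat
Pbx3 peak 122191 bp downstream, chr2:34105232-34105291, plus strand: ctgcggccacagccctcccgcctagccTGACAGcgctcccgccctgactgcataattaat
Pbx3 peak 122191 bp downstream, chr2:34105376-34105435, minus strand: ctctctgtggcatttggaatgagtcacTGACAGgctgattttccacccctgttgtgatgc
Pbx3 peak 111181 bp downstream, chr2:34116493-34116552, minus strand: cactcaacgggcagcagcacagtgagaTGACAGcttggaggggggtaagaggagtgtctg
Pknox1 peak 5782 bp downstream, chr17:31707587-31707646, minus strand: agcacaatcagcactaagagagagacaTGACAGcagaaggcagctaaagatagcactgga
Pknox2 peak 125489 bp downstream, chr9:36829459-36829518, minus strand: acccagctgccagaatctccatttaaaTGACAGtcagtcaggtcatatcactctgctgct
Pknox2 peak 7587 bp downstream, chr9:36947209-36947268, plus strand: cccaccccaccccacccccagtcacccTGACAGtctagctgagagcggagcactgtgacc
The 892 bp Pbx3 peak held 2 matches and each of the other 5 peaks held 1.

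Of the other motifs, the GATA core GATAA was found in 10 of 23 peaks (43.5%, interval 25.6 to 63.2%), beside 28.8%. The LIM-homeodomain site TAATGG, the type of site bound by Isl1, was found in 4 (17.4%, interval 6.98 to 37.1%), beside 7.57%. Both backgrounds lay inside the intervals. The site AAGTG of NK homeobox proteins was found in 11 (47.8%), beside 44.9%. TGATTNAT, a site of Pbx with Hox proteins, was found in 1 (4.35%), beside 2.40%, and TGATTGAC, a site of Pbx with Meis proteins, in none, beside 0.726%. TGATTGAC and TGACAG can overlap.

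**Figure D5:**
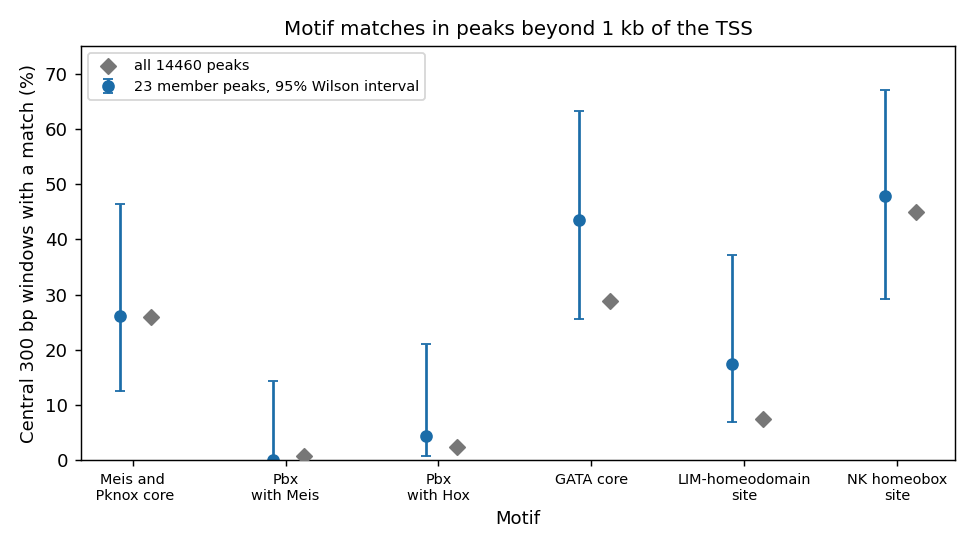
Percent of central 300 bp windows with at least 1 match on either strand, for 6 motifs and peaks beyond 1 kb of the assigned TSS. Circles with bars are the 23 peaks of the Meis, Pbx and Pknox genes with 95% Wilson intervals, and diamonds are all 14460 peaks; each diamond lies within the bar of its motif.

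The other TALE genes and the Hox genes, whose proteins pair with Pbx, were counted in the same list. Of 9 other TALE genes (Irx1, Irx2, Irx3, Irx4, Irx5, Irx6, Mkx, Tgif1 and Tgif2), 7 had an assigned peak and all 9 had a peak within 10 kb of a TSS, beside the 62.5% and 66.6% of all protein coding genes given above, with a mean of 2.89 and a median of 2 assigned peaks. The highest numbers were 10 at Irx3, 6 at Tgif1 and 3 at Irx1. Of 39 Hox genes, 21 had an assigned peak and 33 had a peak within 10 kb, and none had more than 2. As shares these are 53.8% and 84.6%. The Hox genes are short and stand close together, so that 1 peak can be near several of them.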

How the data were processed

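ATAC-seq of day 5 CPCs was performed by the authors in 2 replicates. Per the labels and methods, Bowtie2 served to align reads to mm9, SAMtools removed unpaired and secondary alignments, Picard 1.136 removed duplicates, MACS called peaks with a fixed shift and no model, the ENCODE blacklist was applied, and bedtools 2.15 kept peaks that overlapped by at least 1 bp in both replicates. A TSS annotation step is stated for ChIP-Seq peaks, and the one used for the ATAC-seq list is not given in the sources used here. The deposited list holds positions, a distance to a TSS and a gene symbol per line, with no count or signal. A shared interval carries the coordinates of 1 replicate, so widths are not averages, and the gene assigned is that of the listed TSS and not a target. A gene without a peak at a place is not thereby closed there.

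Lines with the same chromosome, start and end were counted once. Peaks were read in Python 3.11.15 with pandas 2.3.3 and pysam 0.24.0, gene models were those of GENCODE for mm9, and Wilson intervals came from SciPy 1.17.1. The motif search was tested on motifs planted in simulated sequences, and the search for the nearest start on simulated positions. All peaks of the 8 genes are named, and from the comparison lists at most 3 genes each. The members and lists were chosen with earlier results of these data known. The CpG limit of 0.5, the share downstream of the TSS, distances from the nearest coding start, the printed sequences and the peaks assigned to Fez1 were chosen after the values were seen. Alternatives counted every line, wider peaks, another assignment to genes, other promoter windows and whole peaks for motifs.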

Additional observations from a re-analysis of the deposited data

How the results depend on the processing

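Of 36 combinations of a summary value and an alternative, 28 stayed within the limit set for a like value and 8 moved, and of 40 combinations for single genes 32 stayed and 8 moved. The TGACAG share of the 31 peaks, above that of the list at 22.6 against 20.7% in the central 300 bp, was below it in the central 200 bp, at 12.9 against 14.5%. Measured from the nearest coding start, an alternative added after the values were seen, 9.68% of the peaks lay beyond 100 kb in place of 29.0%, and 56.5% of those beyond 1 kb lay downstream in place of 87.0%. Keeping only peaks wider than the median of the list left 15 peaks and a mean of 1.88 per gene, with 46.7% within 1 kb and a median width of 1683 bp, by construction. TGACAG was found in 58.1% of whole peaks, beside 55.5% of all whole peaks, since a longer window holds more matches. A CpG ratio limit of 0.6, added after the values were seen, left 3 peaks in place of 6. By the nearest protein coding start Meis1 had 4 peaks, because 4 of its 7 were nearer to Gm16140 within it and 1 listed for 4933406G16Rik was added. By position within 10 kb of the gene, Pbx2 had 3. No paired analysis was possible because the study had 1 group and its list no value per replicate, and for the same reason no replicate could be left out. Depth is unknown, so no limit on undetected peaks can be given.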

Other observations

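Of the 26232 distinct intervals, 196 (0.747%) were listed on more than 1 line, with quartiles of width of 1720 and 2633 bp around a median of 2110 bp. Of the 31 peaks described here 2 were listed in this way, both assigned to Meis2, with widths of 2092 and 2976 bp. Counted by line, Meis2 would have 9 peaks in place of 7.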
